A study of Mus musculus with 8 samples.

Results

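The niche of the spermatogonial stem cell is described here through 10 genes for secreted ligands and their receptors: Gdnf, Gfra1, Ret, Kitl, Fgf2, Fgf9, Csf1, Cxcl12, Cxcr4 and Bmp4. They were taken by name from the 19938 genes that had a probe set annotated to a single symbol, and each was measured by 1 such probe set, 10 of the 35557 on the array. Total RNA was extracted from the whole testes of 3 mice with intact Ing2 (Ing2+/+) and 5 knockout mice (Ing2-/-), all aged 2 to 3 months, with 1 Affymetrix Mouse Gene ST array per mouse. The Ing2-/- mice lack exon 2 of Ing2 in all tissues after Cre-loxP deletion with the germline-active EIIa-Cre transgene, in a line bred with C57BL/6J, and the Ing2+/+ mice carry no deletion. Ing2 is a histone-binding subunit of the mSin3A-HDAC1 corepressor. Levels are log2 values normalized by RMA (robust multi-array average), so that a difference of 1 is a doubling. The design asks which niche genes differed in level between the genotypes.

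Spermatogonial stem cells sit on the basement membrane of the seminiferous tubule among Sertoli cells, with peritubular myoid cells, Leydig cells, blood vessels and macrophages outside. GDNF (glial cell line-derived neurotrophic factor) binds GFRA1 and signals through the receptor tyrosine kinase RET on undifferentiated spermatogonia, where it favours self-renewal. FGF2, CSF1 and the chemokine CXCL12, which acts on CXCR4, also act on these cells, while KIT ligand, made by Sertoli cells, drives KIT-positive spermatogonia to differentiate. In whole testis RNA, fewer cells of a type and less RNA per cell cannot be told apart.

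The arrays carried the labelled tissue and genotype. All 12 measured markers of pachytene spermatocytes, all 15 of round spermatids, all 13 of elongating spermatids and 20 of 22 of Sertoli cells exceeded background on every array. Background is taken as the median level of 12147 unnamed probe sets on the same array, 5.47 to 5.51 in Ing2+/+ testes and 5.54 to 5.62 in Ing2-/- testes. Ing2 had levels of 7.43, 7.60 and 7.34 in Ing2+/+ testes and of 5.06, 5.64, 5.21, 5.29 and 5.25 in Ing2-/- testes, with no overlap, and fell by 2.16 (adjusted p = 0.000395 by limma). Where its probes lie relative to the deleted exon was not analysed here. Ing2-/- replicate 3 stood apart, with a mean Pearson r across probe sets of 0.983 with the other Ing2-/- arrays, beside 0.990 to 0.992 for the remaining 4.

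Of the 10 niche genes, 1 was called at an adjusted p under 0.05 by limma (Benjamini-Hochberg over the whole array): Cxcr4, which was higher in Ing2-/- testes. Among all genes 4.98% were called, 1.97% higher and 3.01% lower, and among all probe sets 4.82%. Of the calls over all genes 39.5% were higher, beside 24.2% after a further cyclic loess normalization and 0.0658% when every array was set to the same median of Sertoli cell markers. In 6 niche genes (Gdnf, Gfra1, Kitl, Csf1, Cxcl12 and Cxcr4) all 5 Ing2-/- arrays lay above all 3 Ing2+/+ arrays, which was so for 16.7% of all genes (31.6% did not overlap in either direction). Fgf2, Fgf9, Ret and Bmp4 overlapped between the genotypes. The difference was above 0 for 10 of 10 niche genes, with a median of 0.18, beside 54.3% of all genes and a median of 0.02. For Fgf9 it was -0.0054 after cyclic loess. Under that Sertoli shift the difference was below 0 for all 10, and the median of all genes was -0.61. Because the shift lowers every difference by the same amount, no gene changes its place relative to that median. Background was itself higher in Ing2-/- testes (5.54 to 5.62) than in Ing2+/+ testes (5.47 to 5.51). Measured above background, the Ing2+/+ and Ing2-/- means were 1.44 and 1.43 for Gfra1, 0.40 and 0.34 for Fgf9. For Bmp4 they were 0.0591 and 0.0563. The Fgf2 means lay below background in both genotypes, at -0.0691 and -0.0535. The other niche genes stayed higher in Ing2-/- testes. Without Ing2+/+ replicate 1, 2 or 3 no niche gene was called, with 0.246%, 0.201% and 0.747% of all genes called. None was called either when no probe set borrowed variance from the others (0.712% of all genes), 2 were with array weights (20.6%), and 5, all lower, at the equal Sertoli marker median (76.2%). At an unadjusted p under 0.05, 4 niche genes were higher (Cxcr4, Cxcl12, Kitl and Csf1), as were 16.5% of all genes.

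**Figure D1:**
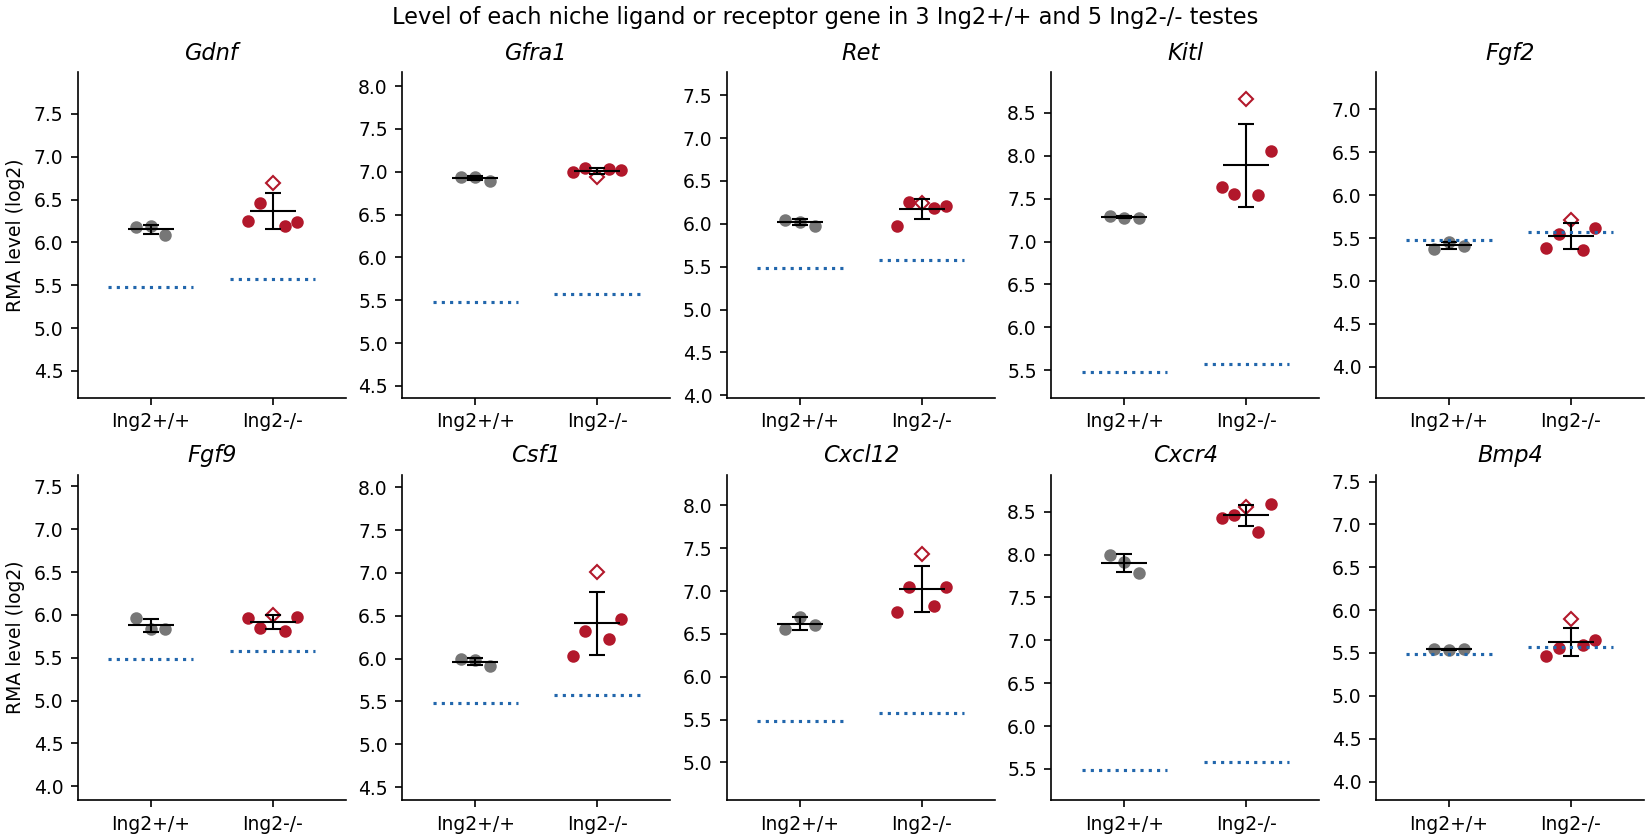
RMA level (log2, linear axes of equal height that do not start at 0) of the 10 niche genes in each testis, with Ing2+/+ in grey, Ing2-/- in red and Ing2-/- replicate 3 as an open diamond; black bars are mean and SD and blue dotted lines are the mean background level of each genotype. Cxcr4 has all 5 Ing2-/- testes between 8.26 and 8.59 above Ing2+/+ testes between 7.79 and 8.0, and Fgf2 and Bmp4 lie at the background level.

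CXCR4 is the receptor through which CXCL12 attracts and retains stem cells, and its gene had the smallest p of the 10. Cxcr4 had levels of 8.0, 7.92 and 7.79 in the Ing2+/+ testes and of 8.43, 8.46, 8.55, 8.26 and 8.59 in the Ing2-/- testes. Every Ing2-/- testis lay above every Ing2+/+ testis, and replicate 3 was not the highest of them. The mean rose from 7.90 ± 0.11 (SD, n = 3) to 8.46 ± 0.13 (SD, n = 5), a log2 difference of 0.55 (SE 0.0891, 95% confidence interval 0.35 to 0.76) or 1.47-fold, with an adjusted p of 0.0179 by limma. The exact two-sided permutation test over the 56 splits of the arrays gave p = 0.0179, the smallest it can give. The call was kept when any Ing2-/- array was left out (0.53 without replicate 3, adjusted p = 0.0109 by limma) and lost without Ing2+/+ replicate 1, 2 or 3, with adjusted p of 0.0727, 0.0896 and 0.0666.

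CXCL12, the ligand of CXCR4, is a chemokine of stromal and Sertoli cells. Cxcl12 had levels of 6.55, 6.70 and 6.61 in Ing2+/+ testes and of 6.76, 7.04, 7.44, 6.83 and 7.05 in Ing2-/- testes. The genotypes did not overlap, and replicate 3 was the highest. The log2 difference was 0.40 (SE 0.143, 95% confidence interval 0.08 to 0.73), 1.32-fold, and did not pass the test (adjusted p = 0.115 by limma). Ackr3, the scavenger receptor that also binds CXCL12, differed by 0.15 with an adjusted p of 0.282.

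KIT ligand (stem cell factor) is the growth factor that differentiating spermatogonia need, and its gene had the largest mean difference of the 10 with all arrays at equal weight, though Cxcr4 exceeded it without Ing2-/- replicate 3 (0.53 against 0.41) and with array weights (0.53 against 0.48). Kitl had levels of 7.29, 7.27 and 7.28 in Ing2+/+ testes and of 7.64, 7.55, 8.67, 7.54 and 8.05 in Ing2-/- testes. The Ing2+/+ testes were nearly identical (SD 0.01), while the Ing2-/- testes spread widely (SD 0.48) and replicate 3 was far above the rest. The difference was 0.61 (SE 0.243, 95% confidence interval 0.06 to 1.16), 1.52-fold, with an adjusted p of 0.148 by limma, and without replicate 3 it was 0.41 with an adjusted p of 0.0586. Kit, the receptor, had a difference of 0.60 (adjusted p = 0.107). Without replicate 3 Kit had 0.43 (adjusted p = 0.0167), in a fit that called 16.5% of all genes.

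CSF1, or macrophage colony-stimulating factor, maintains macrophages and acts on stem cells that carry CSF1R. Csf1 had levels of 6.0, 5.99 and 5.91 in Ing2+/+ testes and of 6.03, 6.32, 7.01, 6.23 and 6.46 in Ing2-/- testes. The groups did not overlap, but replicate 1 was just above the Ing2+/+ testes and replicate 3 was again the highest. The difference was 0.44 (SE 0.191, 95% confidence interval 0.01 to 0.88), 1.36-fold, with an adjusted p of 0.171 by limma, and it was 0.29 without replicate 3 (adjusted p = 0.0883). Csf1r differed by 0.59 (adjusted p = 0.110), and by 0.42 without replicate 3 (adjusted p = 0.0326), where 16.5% of all genes were called.

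None of the 3 genes of GDNF and its receptor complex passed the test. Gdnf had levels of 6.18, 6.19 and 6.09 in Ing2+/+ testes and of 6.25, 6.46, 6.69, 6.20 and 6.24 in Ing2-/- testes. The groups did not overlap, but Ing2-/- replicate 4 was above Ing2+/+ replicate 2 by less than a hundredth of a log2 unit, and the difference of 0.21 had an interval from -0.05 to 0.48 (adjusted p = 0.265 by limma) and was 0.13 without replicate 3. Gfra1, the binding subunit, was at 6.94, 6.94 and 6.90 against 7.0, 7.04, 6.94, 7.03 and 7.02. These values had the narrowest spread within the Ing2-/- testes of the 10 genes, and Gfra1 was the single niche gene in which replicate 3 was the lowest Ing2-/- testis, above the highest Ing2+/+ testis by less than the rounding shown. The difference was 0.08 with an interval from -0.04 to 0.21 (adjusted p = 0.371) and was 0.0075 after cyclic loess (adjusted p = 0.956). Ret, the signalling kinase, was at 6.05, 6.03 and 5.98 against 5.97, 6.25, 6.25, 6.19 and 6.21. Replicates 2 to 5 lay above all Ing2+/+ testes and replicate 1 below them, with a difference of 0.16 (-0.02 to 0.33, adjusted p = 0.231), or 0.10 after cyclic loess.

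Fgf9, a ligand known for testis determination, was at 5.96, 5.84 and 5.83 in Ing2+/+ and at 5.96, 5.85, 5.99, 5.81 and 5.97 in Ing2-/- testes, and the groups overlapped (difference 0.04, interval -0.12 to 0.20, and 0.02 to 0.08 with each array left out). Fgf2, a Sertoli cell growth factor used to culture stem cells, lay at 5.37 to 5.46 in Ing2+/+ testes, at 5.36 to 5.71 in Ing2-/- testes, and was above background on 2 of 8 arrays. Bmp4 ran from 5.54 to 5.55 and from 5.47 to 5.90. These levels were at or near background, so that a change in Fgf2 or Bmp4 was not readily detectable; their differences were 0.11 (adjusted p = 0.482) and 0.09 (adjusted p = 0.585), and without Ing2-/- replicate 3 they were 0.06 and 0.02.

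**Figure D2:**
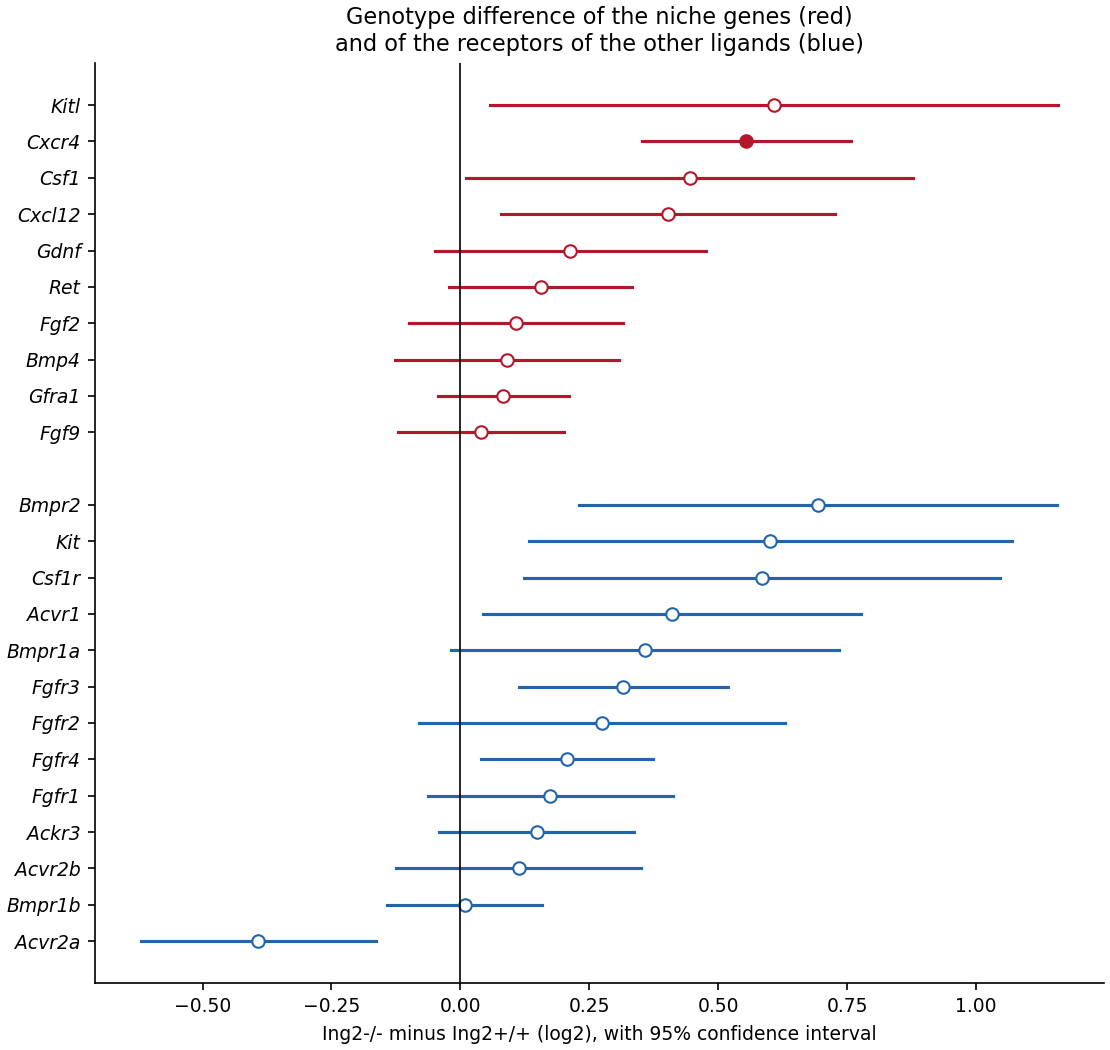
Difference between genotypes (Ing2-/- minus Ing2+/+, log2, points) with its 95% confidence interval from limma (lines) for the 10 niche genes in red and for 13 receptors of the other ligands in blue; a filled point has an adjusted p under 0.05. Only Cxcr4 is filled, and the intervals of Kitl, Csf1 and Cxcl12 reach from near 0 to 1.16, 0.88 and 0.73. A shift of the arrays to an equal Sertoli cell marker median lowers every difference by the same amount. It put all 10 red points below 0 and the median of all genes at -0.61.

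The sequences just upstream of the 4 genes with an unadjusted p under 0.05 are shown because these are the niche genes with the clearest differences. Each is the 250 bases before the RefSeq transcription start on GRCm38.p6, 5′ to 3′ on the strand of the gene, at chr1:128592300-128592549 (minus strand) for Cxcr4, chr6:117168285-117168534 (plus) for Cxcl12, chr10:100015571-100015820 (plus) for Kitl and chr3:107760470-107760719 (minus) for Csf1. Capitals mark matches on either strand to GGGCGG (the GC box), TATAAA (the TATA box), TGACG (core of the cAMP response element), TGANTCA (the AP-1 site) and ACGTG (core of the hypoxia response element).
Cxcr4: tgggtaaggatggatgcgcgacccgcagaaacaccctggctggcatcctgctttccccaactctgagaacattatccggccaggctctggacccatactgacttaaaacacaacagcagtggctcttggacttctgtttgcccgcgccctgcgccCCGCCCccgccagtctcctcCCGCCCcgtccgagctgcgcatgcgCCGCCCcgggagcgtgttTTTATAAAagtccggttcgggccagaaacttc
Cxcl12: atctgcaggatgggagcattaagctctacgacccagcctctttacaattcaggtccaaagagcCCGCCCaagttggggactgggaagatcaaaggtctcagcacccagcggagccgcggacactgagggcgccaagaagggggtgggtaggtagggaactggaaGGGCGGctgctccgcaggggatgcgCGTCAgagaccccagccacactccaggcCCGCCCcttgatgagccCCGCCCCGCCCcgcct
Kitl: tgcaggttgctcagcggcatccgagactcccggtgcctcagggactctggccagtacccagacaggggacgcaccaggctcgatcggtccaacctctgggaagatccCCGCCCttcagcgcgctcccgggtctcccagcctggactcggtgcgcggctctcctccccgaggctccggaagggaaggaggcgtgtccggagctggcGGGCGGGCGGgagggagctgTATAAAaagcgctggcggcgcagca
Csf1: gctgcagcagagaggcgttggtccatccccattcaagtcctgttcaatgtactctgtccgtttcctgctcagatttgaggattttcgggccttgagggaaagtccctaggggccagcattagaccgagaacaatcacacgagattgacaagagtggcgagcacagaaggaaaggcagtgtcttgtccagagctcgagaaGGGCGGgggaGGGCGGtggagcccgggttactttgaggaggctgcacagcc
All 4 held the GC box, with 3 matches in Cxcr4, 5 in Cxcl12, 3 in Kitl and 2 in Csf1. So did 32.7% of the 32851 RefSeq promoter windows of this length. Among the other niche genes Fgf2 and Bmp4 also held it, and Gdnf, Gfra1 and Fgf9 did not. G and C made up 61.2% of the Cxcr4 window, 64.4% of Cxcl12, 69.2% of Kitl and 56.4% of Csf1. Cxcr4 held TATAAA on both strands in 1 overlapping stretch and Kitl held it once (12.4% of windows), and Cxcl12 held TGACG once (17.8% of windows). The AP-1 and hypoxia motifs, found in 6.75% and 16.6% of windows, were not among these letters. A match is a description of the letters and not a binding site. Of the 10 genes, 9 had a promoter entry, and Ret is named only.

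Markers of several testis cell types differed between the genotypes and among the Ing2-/- testes, so their values stand here beside those of the niche genes. A marker score is the mean over a list of the level minus the Ing2+/+ mean. The score of 22 Sertoli cell markers was 0.40, 0.29, 1.09, 0.34 and 0.51 in Ing2-/- replicates 1 to 5, and between -0.01 and 0.01 in Ing2+/+ testes. Kitl was 0.35, 0.27, 1.39, 0.26 and 0.77 above its Ing2+/+ mean in the same testes. Replicate 3 was the highest and replicate 5 the next in each. Kitl minus the Sertoli score averaged 0.08 ± 0.18 (SD, n = 5). The same mean was 0.03 ± 0.28 for Cxcr4 (SD, n = 5). It was below 0 for the other niche genes, from -0.08 for Csf1 to -0.49 for Fgf9. Cxcr4 was 0.53, 0.55, 0.65, 0.36 and 0.68 above its Ing2+/+ mean, which was less than the Sertoli score in replicate 3 and more in the other 4 testes. Scores of other lists in Ing2-/- testes ran from 0.27 to 1.10 for 9 Leydig, 0.10 to 0.47 for 10 peritubular myoid, 0.08 to 0.26 for 11 endothelial and 0.08 to 0.53 for 13 macrophage markers, of which 10 were above background on all arrays, and from -0.89 to -0.15 for 15 round spermatid markers. Replicate 3 was the highest Ing2-/- testis in 7 of the 10 niche genes, among them Fgf2 and Bmp4 at or near background. It also had the highest median level (6.53) and background (5.62) of all arrays. The share of all genes highest in replicate 3 was not analysed here. Among single markers, to be read beside the 4.98% of all genes called and the 16.5% higher and 13.5% lower at an unadjusted p under 0.05, 22 of 22 Sertoli genes had a difference above 0, 18 were higher at an unadjusted p under 0.05 and 1 was called (Defb36, 0.69, adjusted p = 0.0241 by limma), with Aard at 0.68. Of 9 Leydig genes 7 were higher at an unadjusted p under 0.05 and 5 were called, among them the steroidogenic Hsd3b1 (0.80) and Fdx1 (0.48), and of 11 endothelial genes 4 were higher and 1 was called (Kdr, 0.49), with Pecam1 at 0.32. None of 10 myoid genes was called (6 higher and 1 lower at an unadjusted p under 0.05), with Actg2 at -0.48 and Smtn at 0.30. Actg2 ran against the rest of its list and was lowest in Ing2-/- replicate 3 (9.78), where Acta2 was highest (10.62). Of 13 macrophage genes none was called (6 higher), with Cd68 at 0.38 and Mrc1 at 0.40. A difference above 0 was seen in 12 of the 13, with Adgre1 at 0.02. Aif1 ran against its list at -0.26 and was lowest in Ing2-/- replicate 3 (9.81). Of germ cell markers 1 of 12 pachytene genes (Hspa2, -0.40; Ccna1 had -0.78; 5 lower at an unadjusted p under 0.05), 1 of 15 round spermatid genes (Catsper1, -0.74; Acrv1 had -0.54; 8 lower) and none of 13 elongating spermatid genes (3 lower at an unadjusted p under 0.05; Akap4 -0.41, Cabs1 -0.36) were called. Differences were above 0 in 2 of 12 pachytene genes (Sycp3 0.15 and Hormad1 0.01), 1 of 15 round spermatid genes and 0 of 13 elongating spermatid genes. Sycp1 had -0.24, and like Sycp3 and Hormad1 it overlapped between the genotypes. The part of the cell mix in the niche gene differences was not tested.

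**Figure D3:**
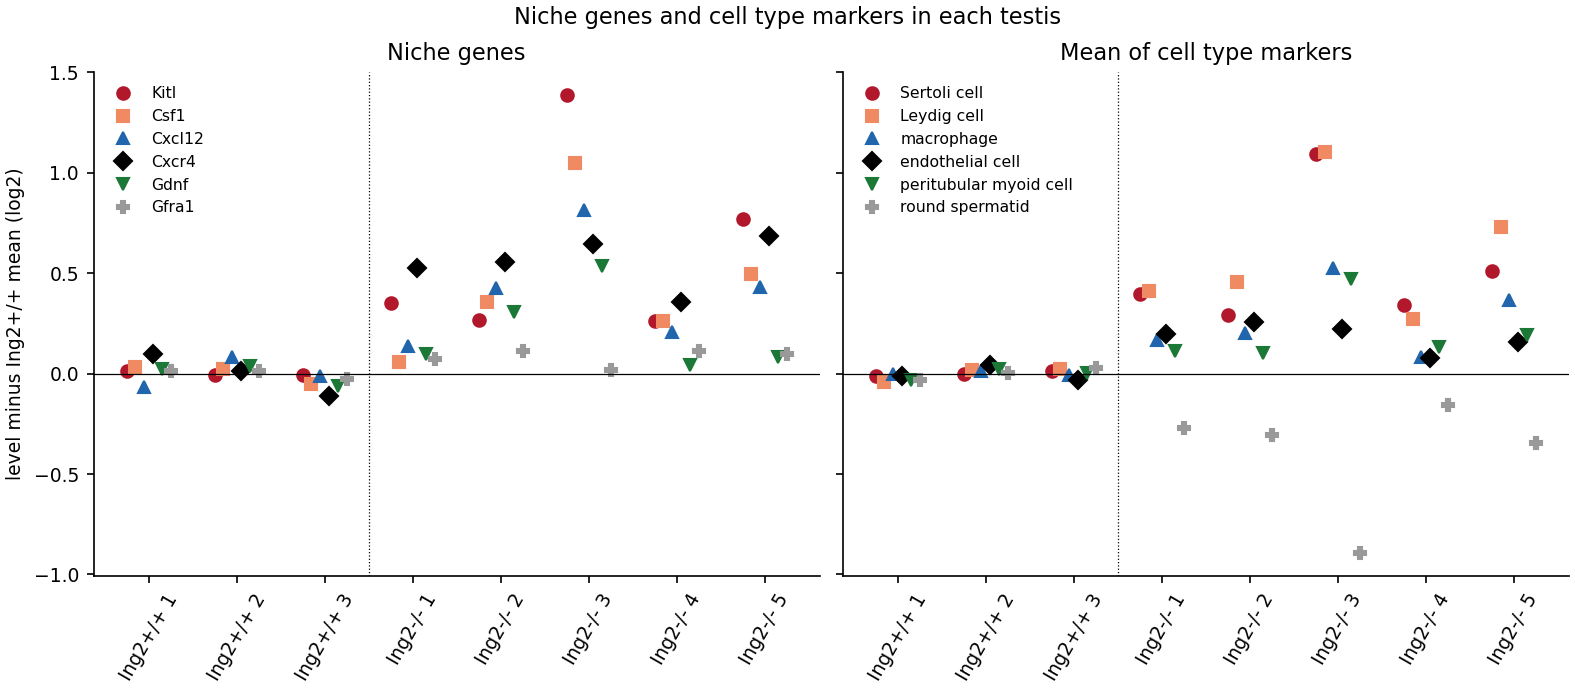
Level minus the Ing2+/+ mean (log2) in each of the 8 testes for 6 niche genes (left) and for the mean of 6 lists of cell type markers (right), each point being 1 testis. Kitl, Csf1 and Cxcl12 peak in Ing2-/- replicate 3, at 1.39 for Kitl, as do the Sertoli and Leydig scores, while Cxcr4 lies between 0.36 and 0.68.

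The pathways around the niche genes were followed in 7 lists, of which 121 of 127 genes were measured and 6 were called, 4.96% beside 4.98% of all genes. Without Ing2+/+ replicate 1 or 2 none was called (0.246% and 0.201% of all genes), without Ing2+/+ replicate 3 there were 2 (0.747%), and without Ing2-/- replicate 5 there were 3 (1.07%). Ncam1, an alternative GDNF receptor, was lower by 0.43 (adjusted p = 0.0258 by limma) and was 1 of 9 measured genes of the GDNF family list. Among 13 receptors of the other ligands none was called, 12 differences were above 0, and 6 were higher and 1 lower at an unadjusted p under 0.05, where all genes had 16.5% and 13.5%. Fgfr3, an FGF receptor of undifferentiated spermatogonia, had 0.32 (adjusted p = 0.0721), and Acvr2a, an activin receptor, had -0.39 (adjusted p = 0.0583). Of 15 other FGF ligands and coreceptors none was called (2 higher at an unadjusted p under 0.05, a share below that of all genes), with Sdc4, a heparan sulfate proteoglycan, at 0.65 (adjusted p = 0.0915) and Sdc1 at 0.17. Of 20 genes of the BMP list 1 was called: Smad1, which carries BMP signals to the nucleus, fell by 0.45 (adjusted p = 0.0179). Of 17 other niche ligands none was called (5 higher at an unadjusted p under 0.05), and Vegfa, the vascular growth factor, had 0.29 (adjusted p = 0.0509) and Igf1, made by Leydig cells, 0.52 (adjusted p = 0.10).

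Signal transducers downstream of the receptors included 2 called genes of 19 measured, both higher. Shc1, an adaptor of receptor tyrosine kinases, rose by 0.59 (adjusted p = 0.0381 by limma) and Spred2, an inhibitor of the RAS-ERK pathway, by 0.50 (adjusted p = 0.0258). Their list had a median of 0.25 and 17 of 19 differences above 0. Over all genes the median was 0.02, 54.3% were above 0 and 4.98% were called. At an unadjusted p under 0.05 by limma 10 of the 19 were higher and 0 lower, beside 16.5% and 13.5% of all genes. Of 28 genes of undifferentiated spermatogonia 2 were called: Epcam, an epithelial adhesion molecule of spermatogonia, fell by 0.88 (adjusted p = 0.0113) and Ccnd2, a cyclin of the G1 phase, rose by 0.51 (adjusted p = 0.0179). Of these 28 genes 18 had a difference above 0 (64.3%, beside 54.3% of all genes). At an unadjusted p under 0.05 by limma 6 were higher and 4 lower, where all genes had 16.5% and 13.5%. Itga6 had 0.72 (adjusted p = 0.0982 by limma), Zbtb16 0.52 (0.0861) and Foxo1 0.39 (0.0910), each highest in Ing2-/- replicate 3. The GDNF-responsive transcription factor genes did not pass the test: Etv5 had 0.43 (adjusted p = 0.0695), Bcl6b -0.22 (0.0829) and Lhx1 -0.25 (0.181). Id4, which marks stem cells, had -0.04 (adjusted p = 0.825). Nanos2, another stem cell gene, was above background on 0 of 8 arrays, so that no difference can be read from it. The increases of Shc1, Spred2 and Ccnd2 turned to -0.04, -0.12 and -0.11 at an equal Sertoli marker median. That shift lowers every difference by the same amount. Without Ing2-/- replicate 3, 25 genes of these lists were called, as were 16.5% of all genes.

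**Figure D4:**
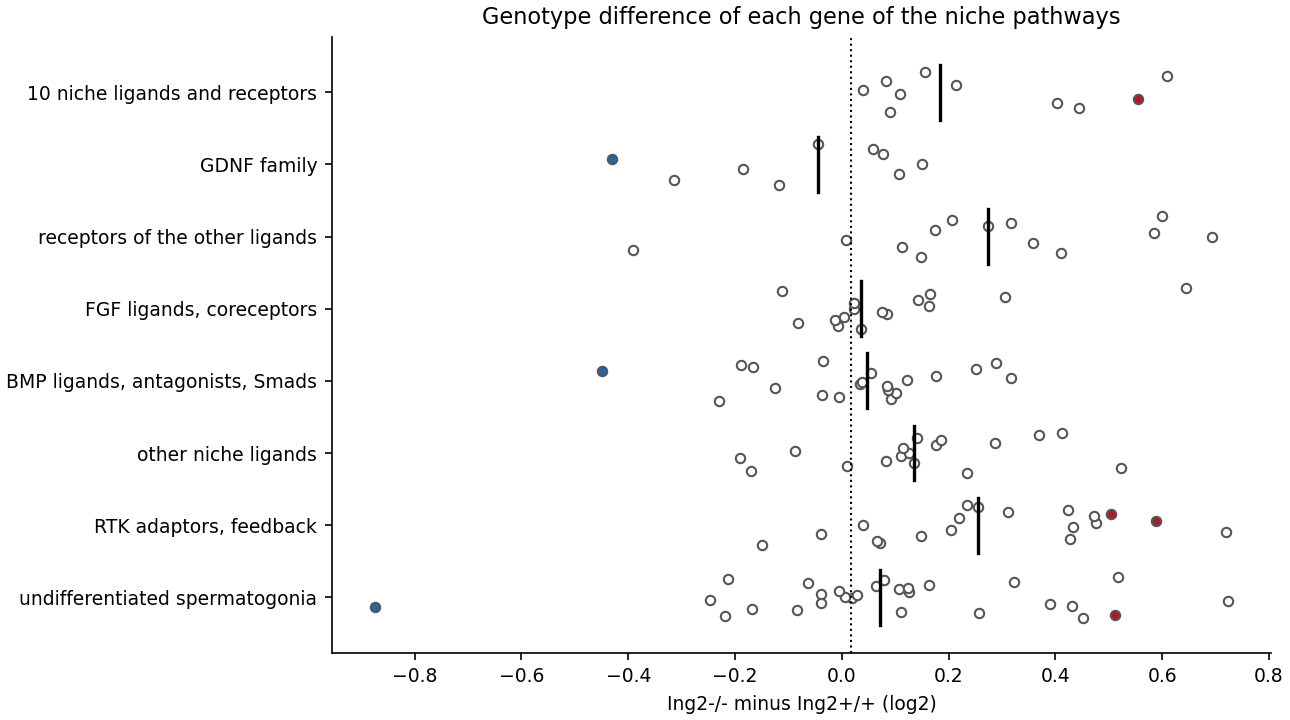
Difference between genotypes (Ing2-/- minus Ing2+/+, log2) of each measured gene in the 10 niche genes and 7 pathway lists, each circle a gene; filled circles have an adjusted p under 0.05 (red higher, blue lower), black bars are list medians and the dotted line is the median of all genes, 0.02. The receptor tyrosine kinase adaptors have a median of 0.25 with 2 filled circles to the right, and the GDNF family has a median of -0.04. A shift to an equal Sertoli marker median, which lowers every difference by the same amount, put the red genes below 0.

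For each niche gene whose groups did not overlap, the genes with the most similar profile were found by the root mean square difference over the 8 arrays of levels centred on the Ing2+/+ mean. Kitl was nearest to Phactr2 (0.0367), then Maged1 and Ppp1r9a. Csf1 was nearest to Trip6 (0.0420), a LIM domain protein, then Sult1a1, a sulfotransferase, and Wipf3. Cxcl12 was nearest to Scap (0.0469), the escort protein of SREBP, then Coq8a and Osr2. Cxcr4 was nearest to Slc38a1 (0.0526), a glutamine transporter, then Atp10d and Tceanc, and no gene lay within 0.05 of it. Gdnf was nearest to Phykpl (0.0301), then Rab3a and Snapc2. Gfra1, which hardly varied, had 166 genes within 0.05, led by Olfr355, Upp1 and Pde11a. The likeness is a description over 8 arrays.

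**Figure D5:**
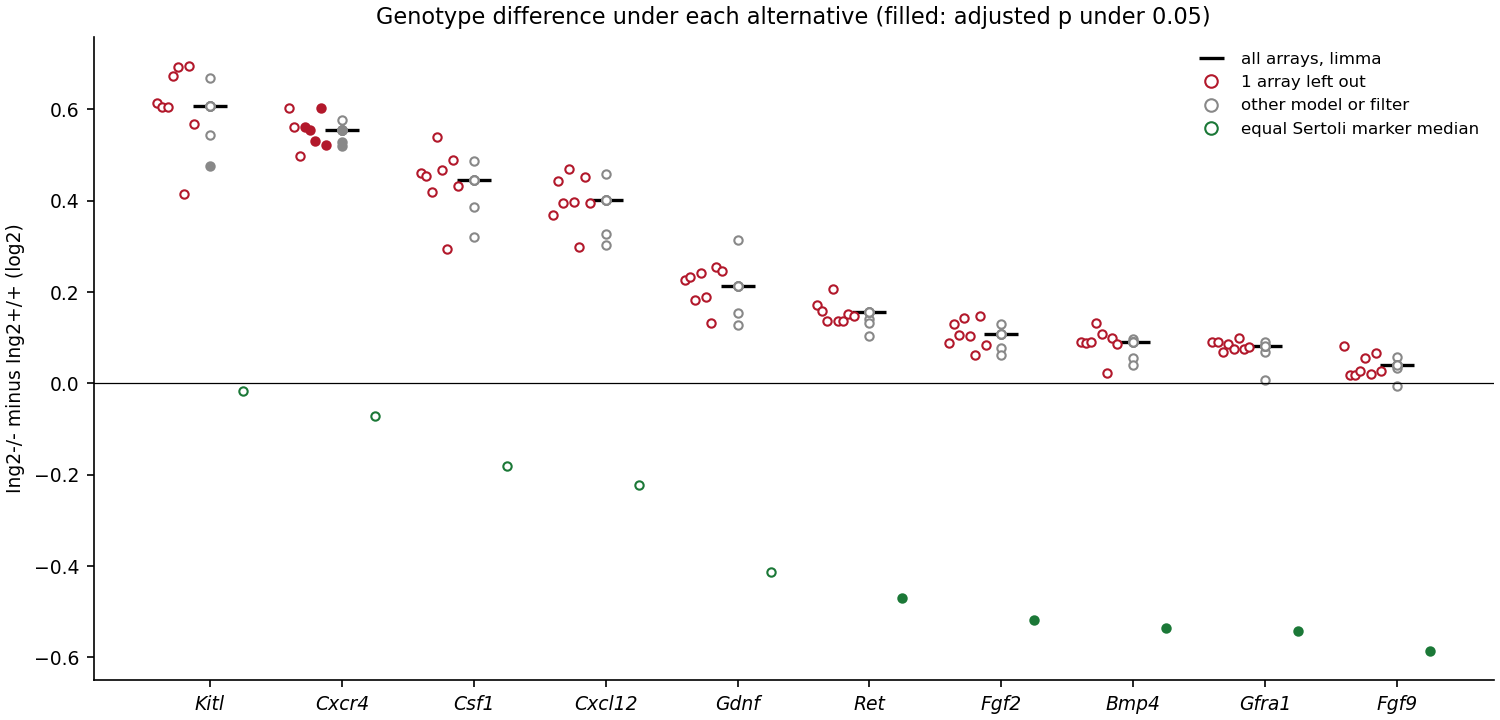
Difference between genotypes (Ing2-/- minus Ing2+/+, log2) of each niche gene with all arrays (black bar), with 1 array left out (red), under another model, scaling or filter (grey) and after a shift to an equal Sertoli marker median (green), filled where the adjusted p is under 0.05. Cxcr4 stays between 0.50 and 0.60 with any array left out. The shift lowers every difference by the same amount, which put all 10 genes below 0.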

How the data were processed

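The authors made the deposited log2 levels with RMA in Affymetrix Expression Console (version not given in the sources used here), summarized per gene and annotated with NetAffx. RMA gives arrays a common distribution, so a change in total RNA leaves no trace. No sequencing depth applies, and the number of arrays limits precision. Symbols were updated to the RefSeq gene table of GRCm38.p6 (21698 of 21789 probe sets with 1 symbol). A gene is its brightest such probe set.

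The genotype effect was fitted in R 4.3.3 by limma 3.58.1 (lmFit, eBayes, no covariate), with p-values adjusted over 35557 probe sets and called at 0.05, and tested on simulated data. Each mouse is 1 sample. A p-value sets the genotype difference against the spread between these testes, which eBayes draws toward that of all probe sets. The members and gene lists were chosen with earlier results of these data known. Named were all members, Ing2 and called genes of each pathway list (up to 4, otherwise the 2 of smallest p). Also named were the 2 of smallest p in each cell type list and the 3 nearest genes of each member without overlap. Kit, Csf1r, Ackr3, Etv5, Bcl6b, Lhx1, Id4, Nanos2, Itga6, Zbtb16 and Foxo1 were chosen after their values were seen. So were Acta2, Aif1, Adgre1, Sycp1, Sycp3 and Hormad1. Some genes of the lists were not analysed here. Tried besides were leave-one-out fits, a block for the replicate number, filters on level and on annotation, cyclic loess, an equal Sertoli marker median, unmoderated variances, array weights, an intensity trend, the methods' random variance test and the mean of all probe sets. Figures were drawn with matplotlib 3.10.9.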

Additional observations from a re-analysis of the deposited data

Results flagged for a closer look

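Of 31 sets of 5 Ing2-/- values tested for a single far testis, 5 had one. For a single set chance gives about 1 in 20. These sets share the same 5 testes and are not independent, so their count cannot be read against that rate. Ret was 5.97 in Ing2-/- replicate 1, with the next testis at 6.19. Vegfa was 7.32 in replicate 2, with the next at 7.16. In replicate 3 the Sertoli cell marker score was 1.09 (next 0.51), the peritubular myoid score 0.47 (next 0.19) and the round spermatid score -0.89 (next -0.35).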

How the results depend on the processing

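The number of niche genes called, 1 with all arrays, was 0 with the replicate number as a block, 0 with unmoderated variances, where no probe set borrows from others, between 0 and 1 with each array left out, 2 with array weights (Kitl and Cxcr4) and 5 at an equal Sertoli marker median (Gfra1, Ret, Fgf2, Fgf9 and Bmp4, all lower). The difference of Cxcr4 was 0.58 with the replicate block (adjusted p = 0.116 by limma), 0.55 with unmoderated variances (0.0629) and 0.50 to 0.60 with each array left out. Kitl was 0.48 with array weights (adjusted p = 0.0476). Ing2 was -2.15 with the replicate block (0.0612). The shift to an equal Sertoli marker median turned Gdnf to -0.41, Gfra1 to -0.54, Ret to -0.47, Kitl to -0.0172, Fgf2 to -0.52, Fgf9 to -0.59, Csf1 to -0.18, Cxcl12 to -0.22, Cxcr4 to -0.0709, Bmp4 to -0.54, Fgfr3 to -0.31, Sdc1 to -0.46, Vegfa to -0.34, Igf1 to -0.10, Shc1 to -0.0373, Spred2 to -0.12 and Ccnd2 to -0.11. By construction it lowers every Ing2-/- array. Under cyclic loess Fgf9 was -0.0054, Gfra1 0.0075, Ret 0.10 and Bmp4 0.06; with array weights Gdnf was 0.13, Fgf2 0.06 and Bmp4 0.04. Calls in the pathway lists, 6 with all arrays, were 79 after that shift, 30 with array weights, 25 without Ing2-/- replicate 3 and 0 with the replicate block or unmoderated variances. Calls over all genes, 992 with all arrays, were 0 with the replicate block, 40 to 3286 with each array left out (most without Ing2-/- replicate 3), 142 with unmoderated variances, 4107 with array weights, 1646 among probe sets with 1 symbol, 1614 with probe sets averaged and 15197 after the Sertoli shift. The filter on level kept Gfra1, Kitl, Cxcl12 and Cxcr4, and averaging probe sets left the difference of each niche gene as it was.

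Deviations from the group mean correlated at -0.06, 0.18 and 0.01 between testes of the same replicate number. Between unlike numbers the correlations ran from -0.11 to 0.14. So few pairs cannot settle whether the replicate numbers pair the testes.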
